A study of Mus musculus with 6 samples.

Results

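Semaphorins, ephrins, Slits and netrins are secreted or membrane-bound guidance cues, and plexins, neuropilins, Eph receptors, Robo receptors and Unc5 receptors are the proteins that read them. The group was taken by gene symbol among the protein-coding rows of the deposited table, which gave 69 genes of 35275 rows. They comprise 20 semaphorins, 2 neuropilins, 9 plexins, 8 ephrins, 14 Eph receptors, 3 Slits, 4 Robo receptors, 5 netrins and 4 Unc5 receptors. RNA had been sequenced from mouse 3T3 cells, an immortalised fibroblast line, carrying either an NNMT overexpression construct (3 libraries) or a control construct (Ctrl, 3 libraries). NNMT methylates nicotinamide and in doing so uses up S-adenosylmethionine, the methyl donor of most cellular methylation reactions. All cultures were kept for 48 h in DMEM with methionine set to 10 µM and 10% dialyzed serum. The sources used here do not say whether a construct was carried by a clone or a mixed population, nor the species of the NNMT sequence.

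Guidance cues were first described as signals that attract or repel growing axons, and fibroblasts use the same molecules to adjust adhesion, spreading and sorting against neighbouring cells. Secreted class 3 semaphorins bind neuropilins, which hold the ligand, while the associated plexins carry the signal inward through a domain that switches off small GTPases of the Ras and Rap type. Ephrins and Eph receptors both sit in the membrane, so that they signal mainly at cell contacts. Slits act through Robo receptors, and netrins act through Dcc, neogenin and Unc5 receptors.

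The deposited values behave as FPKM, fragments or reads scaled to gene length and to library size, and 31622257 to 39982087 whole reads per library were recovered from them. Values are listed in FPKM for the unnumbered NNMT library and NNMT replicates 2 and 3, and for Ctrl replicates 1, 2 and 3. Means carry the SD with n = 3 in each group. Log2 fold changes are NNMT against Ctrl on log2(FPKM + 1), a scale that understates changes of low genes, and a call means a limma adjusted p under 0.05 over all genes tested. Nothing in the labels ties a library to a separately made line, so that the p-values measure the spread between these cultures. Nnmt had 15.7, 15.0 and 18.3 FPKM in NNMT cells, against 7.60, 5.25 and 6.51 in Ctrl cells (log2 fold change 1.23, SE 0.108, adjusted p = 4.75e-06). All 10 fibroblast markers examined reached a mean of 1 FPKM. Their sum came to 9088 to 10775 FPKM in NNMT libraries and 6560 to 6991 in Ctrl libraries, most of it from Col1a1, Col1a2, Fn1 and Vim. Of the 10, 5 rose (Col1a1, Col1a2, Col3a1, Fn1 and Pdgfrb), 3 fell (Thy1, Vim and Lum) and Dcn and Pdgfra were not called. The 5 neuronal markers summed to 0.167 to 0.211 FPKM in NNMT libraries and 0.606 to 0.774 in Ctrl libraries. The 5 endothelial markers summed to 0.113 to 0.137 FPKM in NNMT and 0.145 to 0.247 in Ctrl libraries, and the 5 epithelial markers to at most 0.034 in NNMT and 0.140 in Ctrl libraries. The 5 glial markers summed to 0.526 to 0.612 FPKM in NNMT and 0.412 to 0.517 in Ctrl libraries, and the 5 macrophage markers, of which Cd68 alone averaged at least 1 FPKM, to 1.19 to 1.84 in NNMT and 2.40 to 2.88 in Ctrl libraries. Emcn, Epcam, Krt18 and Olig2 were listed at 0 in all 6 libraries. The part of these marker differences in the results was not tested.

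The guidance genes moved in both directions. Sema3c, Unc5b, Sema3b and Plxna2 had the highest log2 fold changes, and Efna5, Plxna3, Epha2 and Efnb1 the lowest. Of 69 members, 63 had at least 1 read and 31 reached the mean of 1 FPKM over the 6 libraries that was required for a test. Among these 31, 14 rose, 8 fell and 9 were not called. Over all 10882 genes tested 35.0% rose and 30.6% fell, 65.6% in all, so that the 22 calls among 31 members lie near the background of this comparison. The groups did not overlap in 23 of 31 tested members, against 69.9% of all genes tested. The median log2 fold change was 0.13 over the tested members and 0.03 over all genes tested, and the median absolute change was 0.45 and 0.24. A log2 fold change of at least 1 was seen in 5 members (Sema3c, Unc5b, Sema3b, Plxna2 and Sema4g), and none fell by as much. Over all genes tested, 257 rose and 192 fell by that size. In bulk RNA, fewer cells that express a gene and less RNA per cell cannot be told apart.

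**Figure D1:**
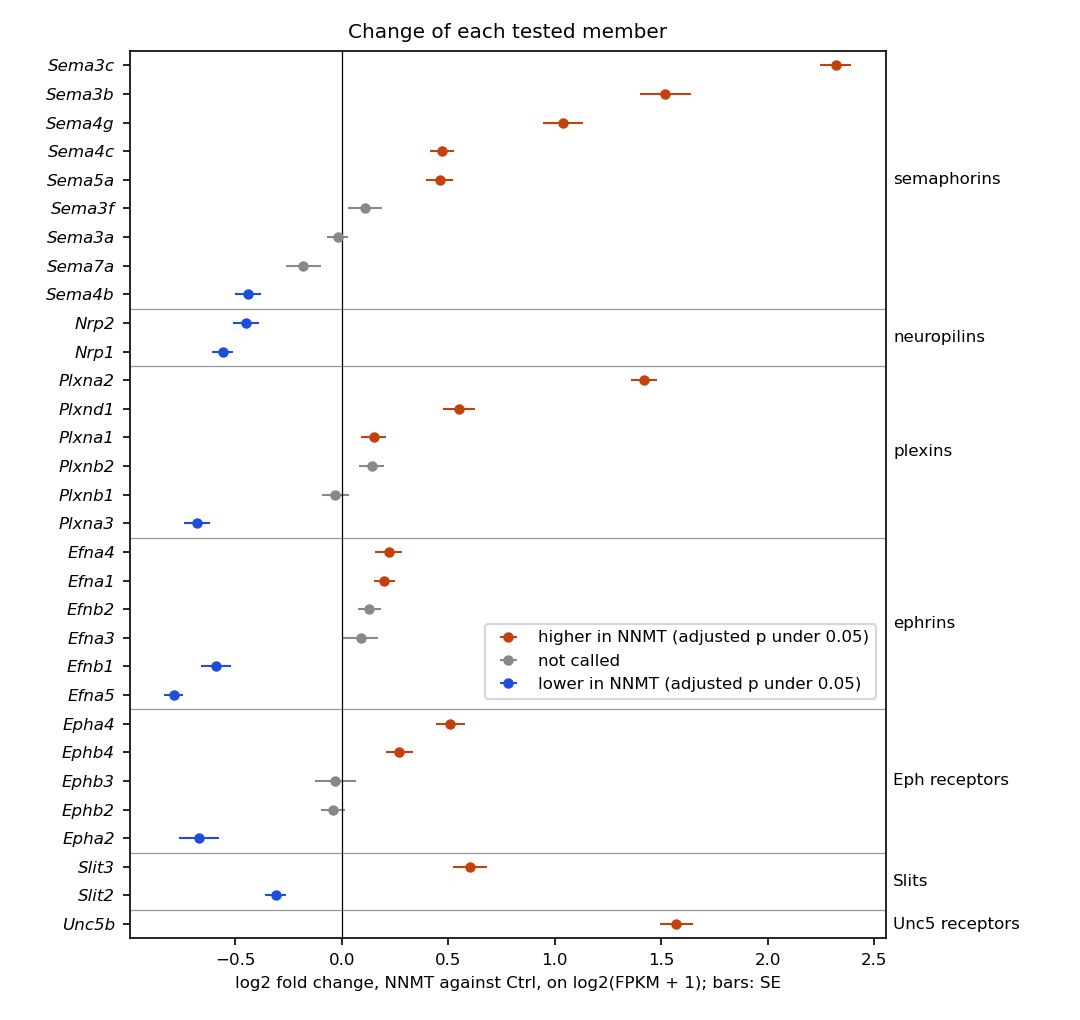
Log2 fold change of each tested member, NNMT against Ctrl on log2(FPKM + 1), grouped by family, with bars for the SE and colours for the call. Sema3c at 2.32 and Unc5b at 1.57 lie farthest to the right, and Efna5 at -0.79 farthest to the left.

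The promoter windows of the 3 tested members with the highest and the 3 with the lowest log2 fold changes among those with 1 annotated window are shown, so that their base composition can be set beside their changes. Each window runs from 250 bases before to 50 bases after the RefSeq gene start on GRCm38.p6, is written 5′ to 3′ on the strand of the gene, and has every CpG dinucleotide, the site of DNA methylation in mammals, in capitals. The first 3 belong to Sema3c (chr5:17574566-17574865, plus strand), Unc5b (chr10:60831532-60831831, minus strand) and Plxna2 (chr1:194619579-194619878, plus strand), which rose. The other 3 belong to Epha2 (chr4:141300971-141301270, plus strand), Plxna3 (chrX:74328816-74329115, plus strand) and Efna5 (chr17:62881268-62881567, minus strand), which fell.
Sema3c: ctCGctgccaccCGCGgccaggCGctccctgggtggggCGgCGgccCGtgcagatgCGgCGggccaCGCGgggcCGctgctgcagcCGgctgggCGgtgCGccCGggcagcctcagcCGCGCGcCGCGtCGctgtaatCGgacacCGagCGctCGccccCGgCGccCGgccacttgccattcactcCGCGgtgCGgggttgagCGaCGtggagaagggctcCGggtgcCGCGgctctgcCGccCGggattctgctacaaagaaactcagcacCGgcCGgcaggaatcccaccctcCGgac
Unc5b: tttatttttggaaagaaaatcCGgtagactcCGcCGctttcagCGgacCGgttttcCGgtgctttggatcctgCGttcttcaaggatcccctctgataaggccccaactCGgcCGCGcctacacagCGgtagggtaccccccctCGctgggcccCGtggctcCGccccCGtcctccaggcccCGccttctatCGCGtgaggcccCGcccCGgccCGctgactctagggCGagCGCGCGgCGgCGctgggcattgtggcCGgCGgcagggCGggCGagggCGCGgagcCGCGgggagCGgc
Plxna2: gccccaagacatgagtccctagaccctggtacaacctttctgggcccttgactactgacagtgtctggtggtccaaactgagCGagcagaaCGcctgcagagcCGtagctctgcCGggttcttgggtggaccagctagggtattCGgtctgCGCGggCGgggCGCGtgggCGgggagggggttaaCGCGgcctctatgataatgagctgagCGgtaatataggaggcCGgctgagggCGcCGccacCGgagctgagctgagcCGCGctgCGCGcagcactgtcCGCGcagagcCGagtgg
Epha2: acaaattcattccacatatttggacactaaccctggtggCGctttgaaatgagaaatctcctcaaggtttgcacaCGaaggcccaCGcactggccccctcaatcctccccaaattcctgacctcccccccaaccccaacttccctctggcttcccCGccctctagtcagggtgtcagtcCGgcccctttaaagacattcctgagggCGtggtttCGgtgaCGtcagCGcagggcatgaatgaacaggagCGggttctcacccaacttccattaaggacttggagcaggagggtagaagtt
Plxna3: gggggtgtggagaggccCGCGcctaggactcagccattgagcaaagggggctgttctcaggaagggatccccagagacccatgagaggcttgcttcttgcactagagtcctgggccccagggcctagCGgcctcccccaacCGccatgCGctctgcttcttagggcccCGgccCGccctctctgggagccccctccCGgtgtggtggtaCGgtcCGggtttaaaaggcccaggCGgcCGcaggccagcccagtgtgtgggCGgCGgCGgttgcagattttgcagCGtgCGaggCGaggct
Efna5: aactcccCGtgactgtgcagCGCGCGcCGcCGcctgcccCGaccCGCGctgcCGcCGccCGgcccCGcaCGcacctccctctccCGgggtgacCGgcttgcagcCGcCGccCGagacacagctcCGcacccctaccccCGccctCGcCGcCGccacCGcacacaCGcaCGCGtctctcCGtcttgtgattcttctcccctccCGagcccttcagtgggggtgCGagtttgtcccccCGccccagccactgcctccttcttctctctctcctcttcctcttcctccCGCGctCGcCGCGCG

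The windows of the strongest riser and the strongest faller were both rich in CpG. Sema3c had 42 CpG dinucleotides in 300 bases and Efna5 had 38, whereas Epha2 had 10, the fewest among the windows of called members. Unc5b had 36, Plxna2 had 25 and Plxna3 had 18. Of the 31 tested members 28 matched the RefSeq table, with 33 windows, since 5 members have more than 1. The median was 23 CpG per window over those 33 and 7 over all 32851 windows of the table, which include genes that were not tested here. It was 23 in the 14 windows of members that rose and 26 in the 9 windows of members that fell. The letters GGGCGG, the GC box bound by Sp1, were searched on both strands and may overlap CpG dinucleotides or each other. They occurred in 29 of the 33 member windows (87.9%), against 35.7% of all windows, in 13 of 14 windows of risers and 8 of 9 of fallers. TATAAA was found in 2 member windows (6.06%, against 13.6% of all windows) and CCAAT in 7 (21.2%, against 37.4%). TGANTCA, the AP-1 motif, was in 1 member window (3.03%, against 7.81%), and TGACGTCA, the cyclic AMP response element, in 1, that of Epha2 (3.03%, against 1.79%). These are matches of letters only, and the start site used in these cells was not measured.

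Among the semaphorin ligands, 5 of 9 tested genes rose and 1 fell, beside 35.0% and 30.6% of all genes tested. Sema3c (ENSMUSG00000028780, GRCm38 chromosome 5, 17574281 to 17730268), a secreted ligand needed for septation of the cardiac outflow tract in mice, had 9.33, 8.18 and 9.88 FPKM in NNMT cells, against 1.01, 1.06 and 1.01 in Ctrl cells. Every NNMT library lay far above every Ctrl library, and the Ctrl libraries hardly differed. The means were 9.13 ± 0.870 FPKM in NNMT and 1.03 ± 0.0263 FPKM in Ctrl cells, an 8.89-fold difference (log2 fold change 2.32, SE 0.0728, adjusted p = 4.50e-09) resting on 5611 reads in NNMT and 591 in Ctrl libraries. Sema3b (ENSMUSG00000057969, chromosome 9, 107597674 to 107609229), another secreted neuropilin ligand, had 4.55, 2.93 and 4.10 FPKM in NNMT cells, against 0.693, 0.554 and 0.791 in Ctrl cells. It rose 5.69-fold (log2 fold change 1.52, SE 0.119, adjusted p = 2.09e-06), with NNMT replicate 2 the lowest of the NNMT libraries.

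The most abundant class 3 ligand did not share in this. Sema3a, the prototype growth cone collapsing factor, had 21.6, 22.9 and 23.2 FPKM in NNMT cells, against 22.2, 22.9 and 23.6 in Ctrl cells, and the groups overlapped (log2 fold change -0.02, SE 0.0492, adjusted p = 0.702). Sema3f, which signals mainly through Nrp2, had 14.3, 11.6 and 13.8 FPKM in NNMT cells and 13.1, 12.1 and 11.3 in Ctrl cells, also overlapping (0.11, SE 0.0796, adjusted p = 0.246). Without NNMT replicate 2, its lowest NNMT library, the difference was called (0.20, adjusted p = 0.0218). Sema3d, Sema3e and Sema3g had at most 24 reads per group. Summed over the class, the level was 48.8 ± 2.84 FPKM in NNMT and 36.8 ± 0.241 FPKM in Ctrl libraries. The share of that sum from Sema3c was 18.7% ± 0.721 in NNMT cells and 2.79% ± 0.0859 in Ctrl cells. The share from Sema3a was 46.2% ± 3.49 in NNMT cells and 62.2% ± 2.27 in Ctrl cells.

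**Figure D2:**
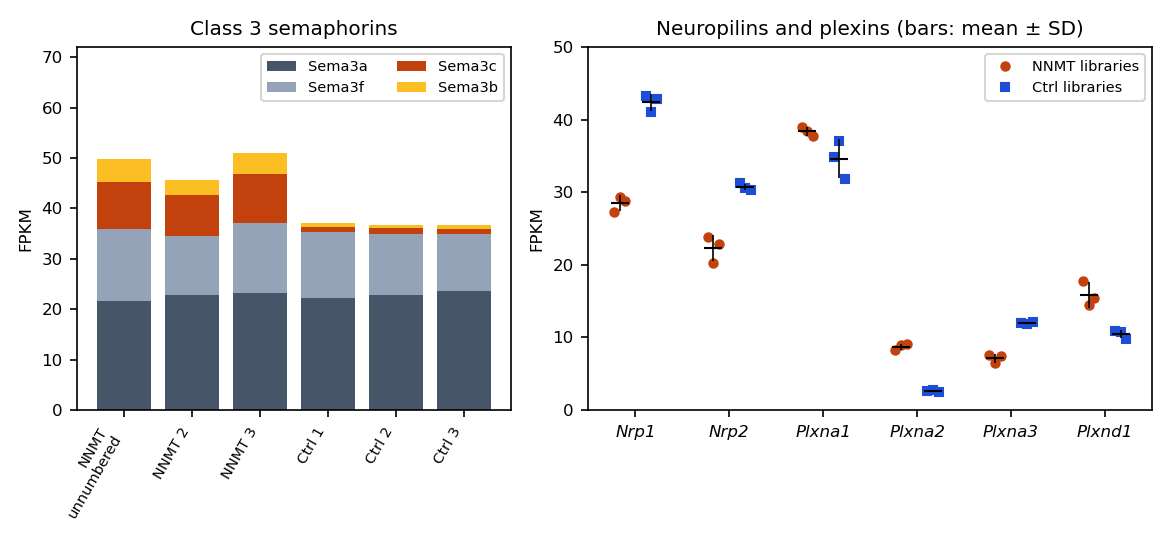
Left, stacked FPKM of Sema3a, Sema3f, Sema3c and Sema3b in each library. Right, FPKM of neuropilins and plexins in each library with mean ± SD. Sema3c and Sema3b add to the NNMT bars while Sema3a stays between 21.6 and 23.6 FPKM, and the neuropilin points lie lower in NNMT libraries.

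The membrane-bound semaphorins moved in both directions. Sema4g had 4.72, 3.53 and 4.66 FPKM in NNMT cells, against 1.67, 1.44 and 1.56 in Ctrl cells, a rise of 2.76-fold without overlap (log2 fold change 1.04, SE 0.0936, adjusted p = 5.37e-06). Sema4c, a ligand of plexin-B2, had 12.6, 12.0 and 11.3 FPKM in NNMT cells and 8.15, 8.59 and 8.22 in Ctrl cells (0.47, SE 0.0549, adjusted p = 3.35e-05). Sema5a, which carries thrombospondin repeats, rose 1.48-fold to 5.45 ± 0.401 FPKM in NNMT cells, against 3.68 ± 0.115 in Ctrl cells. Sema4b was the tested semaphorin that fell, with 6.27 ± 0.273 FPKM in NNMT cells and 8.90 ± 0.606 in Ctrl cells (log2 fold change -0.44, adjusted p = 0.000117). Sema6b, under the filter and not tested, was also lower in NNMT cells (0.0914 against 0.458 FPKM). Sema7a, a lipid-anchored semaphorin that signals through integrins, had 13.0, 12.9 and 11.7 FPKM in NNMT cells and 12.6, 16.4 and 14.3 in Ctrl cells. Its groups overlapped and it was not called (-0.18, SE 0.0824, adjusted p = 0.0755), but without Ctrl replicate 1, its lowest Ctrl library, it was (-0.27, adjusted p = 0.0113).

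Both neuropilins, the ligand-holding receptors of class 3 semaphorins, were lower in NNMT cells. Nrp1 (ENSMUSG00000025810, chromosome 8, 128358604 to 128503363), which also binds VEGF, had 27.3, 29.4 and 28.8 FPKM in NNMT cells, against 43.3, 41.1 and 42.8 in Ctrl cells. It fell 1.49-fold (log2 fold change -0.56, SE 0.0474, adjusted p = 3.76e-06). Nrp2 had 23.8, 20.3 and 22.9 FPKM in NNMT cells, against 31.2, 30.6 and 30.3 in Ctrl cells, a 1.38-fold fall (-0.45, SE 0.0595, adjusted p = 8.96e-05). For each gene the highest NNMT library lay below the lowest Ctrl library. Their sum was 50.8 ± 1.06 FPKM in NNMT cells and 73.1 ± 1.37 FPKM in Ctrl cells, while the summed class 3 ligands were higher in NNMT cells.

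Of 6 tested plexins 3 rose, 1 fell and 2 were not called, beside 35.0% higher and 30.6% lower over all genes tested. The type A genes went apart. Plxna2 (ENSMUSG00000026640, chromosome 1, 194618218 to 194816869), a receptor for class 3 semaphorins with neuropilins and for class 6 semaphorins without them, had 8.23, 8.90 and 9.04 FPKM in NNMT cells, against 2.65, 2.76 and 2.5 in Ctrl cells. It rose 3.31-fold (log2 fold change 1.42, SE 0.0606, adjusted p = 3.64e-08). Plxna3, on the X chromosome, had 7.60, 6.45 and 7.41 FPKM in NNMT cells, against 12.0, 11.9 and 12.1 in Ctrl cells (-0.68, SE 0.0619, adjusted p = 6.30e-06). The median over all tested X-linked genes was -0.70. Plxna2 thus made up 15.9% ± 0.925 of the summed type A plexin FPKM in NNMT cells and 5.26% ± 0.0473 in Ctrl cells, and Plxna3 made up 13.1% ± 1.03 in NNMT cells and 24.0% ± 1.67 in Ctrl cells. Plxna1, the most abundant of the type, had 39.0, 38.4 and 37.7 FPKM in NNMT cells and 34.9, 37.1 and 31.8 in Ctrl cells. Its small rise (0.15, SE 0.0581, adjusted p = 0.0444) was lost in 10 of 16 alternatives, with adjusted p = 0.162 under medians of ratios scaling and 0.203 without Ctrl replicate 3.

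Plxnd1, the receptor that Sema3e binds without a neuropilin, had 17.8, 14.4 and 15.4 FPKM in NNMT cells, against 10.9, 10.7 and 9.78 in Ctrl cells, a 1.51-fold rise (0.55, SE 0.0751, adjusted p = 0.000104). Sema3e itself had 1 read in NNMT and 0 in Ctrl libraries. Plxnb2, a receptor of class 4 semaphorins, had the highest FPKM of all members, with 80.5, 69.8 and 73.9 in NNMT cells and 70.2, 68.0 and 65.0 in Ctrl cells. These overlapped (0.14, SE 0.0584, adjusted p = 0.0578), and without NNMT replicate 2 the difference was called (0.19, adjusted p = 0.0117). Plxnb1 had 1.55 ± 0.00546 FPKM in NNMT and 1.60 ± 0.0322 FPKM in Ctrl cells and was not called (-0.03, adjusted p = 0.734), although the groups did not overlap.

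**Figure D3:**
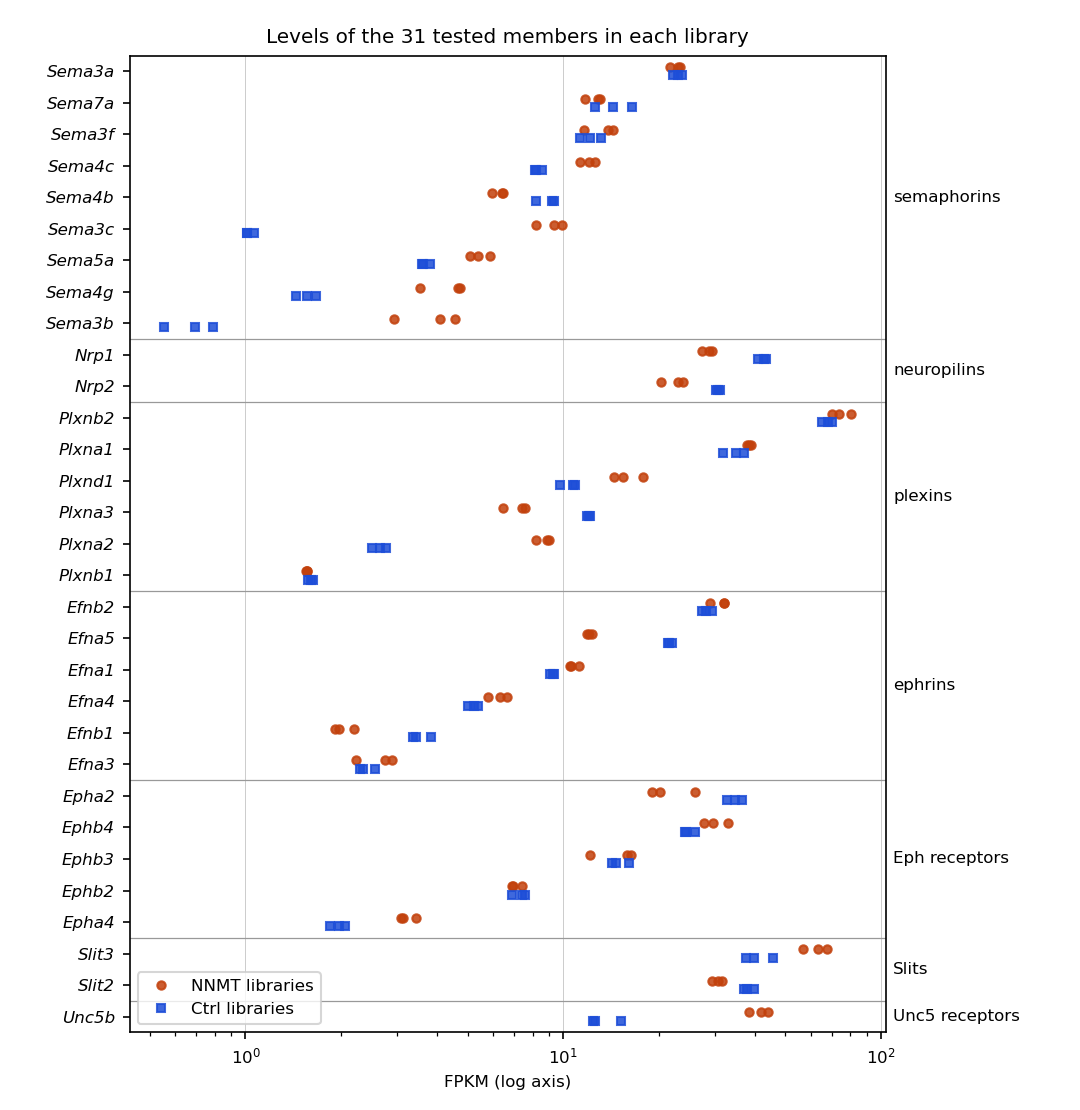
FPKM of the 31 tested members in each NNMT library (circles) and each Ctrl library (squares) on a log axis, grouped by family. The members run from Plxnb1 and Sema3b near the low end to Plxnb2 at 65.0 to 80.5, and the groups are farthest apart for Sema3c.

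Among the ephrin-A ligands and EphA receptors the most abundant gene of each kind fell and some less abundant ones rose. Efna5 (ENSMUSG00000048915, chromosome 17, 62604184 to 62881317), a lipid-anchored ligand that guides retinal axons, had 11.9, 12.0 and 12.3 FPKM in NNMT cells, against 22.0, 21.5 and 21.3 in Ctrl cells. It fell 1.79-fold with little spread in either group (log2 fold change -0.79, SE 0.0451, adjusted p = 2.50e-07). Efna1, the main ligand of EphA2, had 10.6, 10.5 and 11.2 FPKM in NNMT cells, against 9.27, 9.35 and 9.11 in Ctrl cells (0.20, SE 0.0497, adjusted p = 0.00444). Efna4 rose by a like amount, to 6.25 ± 0.420 FPKM in NNMT cells against 5.22 ± 0.197 in Ctrl cells (0.22, adjusted p = 0.00997). Efna3 was not called (2.62 ± 0.356 FPKM in NNMT and 2.40 ± 0.132 in Ctrl cells, adjusted p = 0.377). Of the summed ephrin-A FPKM, Efna5 made up 38.0% ± 0.562 in NNMT cells and 55.9% ± 0.177 in Ctrl cells.

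Epha2 (ENSMUSG00000006445, chromosome 4, 141301240 to 141329384), a receptor tyrosine kinase common in epithelia and tumours, had 20.2, 25.9 and 19.0 FPKM in NNMT cells, against 32.8, 36.6 and 34.8 in Ctrl cells. It fell 1.60-fold without overlap (log2 fold change -0.67, SE 0.0955, adjusted p = 0.000146), and NNMT replicate 2 was the NNMT library nearest to Ctrl. Epha4, which binds ephrins of both classes, had 3.12, 3.09 and 3.44 FPKM in NNMT cells, against 2.05, 1.84 and 1.97 in Ctrl cells (0.51, SE 0.0670, adjusted p = 7.77e-05). The ratio of Epha4 to Epha2 was 0.152 ± 0.0310 in NNMT cells and 0.0565 ± 0.00598 in Ctrl cells, so Epha2 stayed the more abundant in all libraries.

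Of the B class, Ephb4 rose, Efnb1 fell and Efnb2, Ephb2 and Ephb3 were not called. Efnb2, the transmembrane ligand that marks arterial endothelium, had 32.0, 32.1 and 29.0 FPKM in NNMT cells and 27.4, 28.1 and 29.3 in Ctrl cells, overlapping and not called (0.13, SE 0.0537, adjusted p = 0.0558). It was called without NNMT replicate 3 (0.18, adjusted p = 0.0199). Ephb4, its preferred receptor, had 32.9, 27.8 and 29.6 FPKM in NNMT cells, against 26.0, 24.4 and 24.1 in Ctrl cells, and rose 1.21-fold (0.27, SE 0.0632, adjusted p = 0.00374). Efnb1, an X-linked ligand mutated in human craniofrontonasal syndrome, had 2.20, 1.91 and 1.97 FPKM in NNMT cells, against 3.44, 3.84 and 3.36 in Ctrl cells (-0.59, SE 0.0708, adjusted p = 4.37e-05). Ephb3 had 16.3, 12.1 and 15.9 FPKM in NNMT cells and 16.1, 14.2 and 14.6 in Ctrl cells (-0.03, SE 0.0962, adjusted p = 0.821). Ephb2 stood at 7.07 ± 0.298 FPKM in NNMT and 7.28 ± 0.353 FPKM in Ctrl cells (-0.04, adjusted p = 0.593). Neither was called and the groups of each overlapped.

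The 2 expressed Slits, large secreted ligands of Robo receptors, moved in opposite directions. Slit3 (ENSMUSG00000056427, chromosome 11, 35121224 to 35708507) had 67.4, 56.8 and 63.5 FPKM in NNMT cells, against 45.8, 39.9 and 37.5 in Ctrl cells, a 1.52-fold rise (log2 fold change 0.60, SE 0.0798, adjusted p = 9.06e-05). Slit2 (ENSMUSG00000031558, chromosome 5, 47983138 to 48307733) had 29.3, 31.5 and 30.7 FPKM in NNMT cells, against 39.8, 37.7 and 36.9 in Ctrl cells, a 1.25-fold fall (-0.31, SE 0.0494, adjusted p = 0.000280). The ratio of Slit3 to Slit2 was 2.30, 1.80 and 2.07 in NNMT cells, against 1.15, 1.06 and 1.02 in Ctrl cells. Near parity in Ctrl libraries thus stood against a clear excess of Slit3 in NNMT libraries. The receptors were almost without reads. Robo2 was listed at 0, Robo1 had 1 read in each group, Robo4 had 0 in NNMT and 1 in Ctrl libraries, and Robo3 had 10 in NNMT and 1 in Ctrl libraries.

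The netrin receptor gene Unc5b (ENSMUSG00000020099, chromosome 10, 60762593 to 60831581), which repels cells from netrin-1 and also binds FLRT proteins, showed the second highest fold change among members on the log2(FPKM + 1) scale. It had 44.2, 42.0 and 38.5 FPKM in NNMT cells, against 12.4, 15.2 and 12.6 in Ctrl cells. All NNMT libraries lay far above all Ctrl libraries, a 3.10-fold rise (log2 fold change 1.57, SE 0.0773, adjusted p = 9.38e-08). Netrins were scarce in both groups. Ntn1, the founding netrin, had 0.0775 ± 0.00739 FPKM in NNMT cells and 0.446 ± 0.0917 FPKM in Ctrl cells, on 51 and 270 reads. Summed over Ntn1, Ntn4, Ntn5, Ntng1 and Ntng2, netrins reached 0.229 ± 0.0552 FPKM in NNMT and 0.633 ± 0.140 FPKM in Ctrl cells. Unc5a stood at 0.568 ± 0.147 FPKM in NNMT and 0.185 ± 0.0506 FPKM in Ctrl cells, Unc5c had 5 reads in NNMT and 1 in Ctrl libraries, and Unc5d was listed at 0.

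A further 32 members had reads but a mean under 1 FPKM and were not tested, and 6 (Epha5, Epha6, Epha8, Ephb1, Robo2 and Unc5d) were listed at 0 in all libraries. Of the 32, 14 had at least 10 reads in each group. Ephb6, an Eph receptor with an inactive kinase domain, had 1.35, 0.925 and 0.988 FPKM in NNMT cells, against 0.312, 0.198 and 0.201 in Ctrl cells, a ratio of 4.58. Sema6a, a transmembrane ligand of plexin-A2 and plexin-A4, stood at 0.314 ± 0.0659 FPKM in NNMT and 0.0889 ± 0.0293 FPKM in Ctrl cells, and Sema4d, the ligand of plexin-B1, at 0.162 ± 0.0619 FPKM in NNMT and 0.0555 ± 0.00890 FPKM in Ctrl cells. In the other direction, Sema6b stood at 0.0914 ± 0.0228 FPKM in NNMT and 0.458 ± 0.0745 FPKM in Ctrl cells, and Plxna4 at 0.535 ± 0.0442 FPKM in NNMT and 0.900 ± 0.244 FPKM in Ctrl cells. None of these groups overlapped. Epha7, Epha1 and Efnb3 had NNMT over Ctrl ratios of 1.48, 1.53 and 1.51, also without overlap. Lack of overlap was common in this comparison, at 69.9% of all genes tested, and its share among genes under the filter was not computed. Epha1 shares 236 exon bases with Zyx on the opposite strand, which averaged 209.6 FPKM, so that its reads are uncertain without knowledge of strand. Ntn4, Sema6c, Sema4a and Slit1 overlapped between the groups. The other 18 (Sema3d, Sema3e, Sema3g, Sema4f, Sema5b, Sema6d, Plxnb3, Plxnc1, Efna2, Epha3, Epha10, Robo1, Robo3, Robo4, Ntn5, Ntng1, Ntng2 and Unc5c) had under 10 reads in at least 1 group. With no filter, the fit called 18 of the 63 members with reads higher, against 21.4% of all genes, and 12 lower, against 17.1%, but on this scale the values of low members are compressed. Efna2 had the most reads of those under 10 in a group, 8 in NNMT and 42 in Ctrl libraries.

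**Figure D4:**
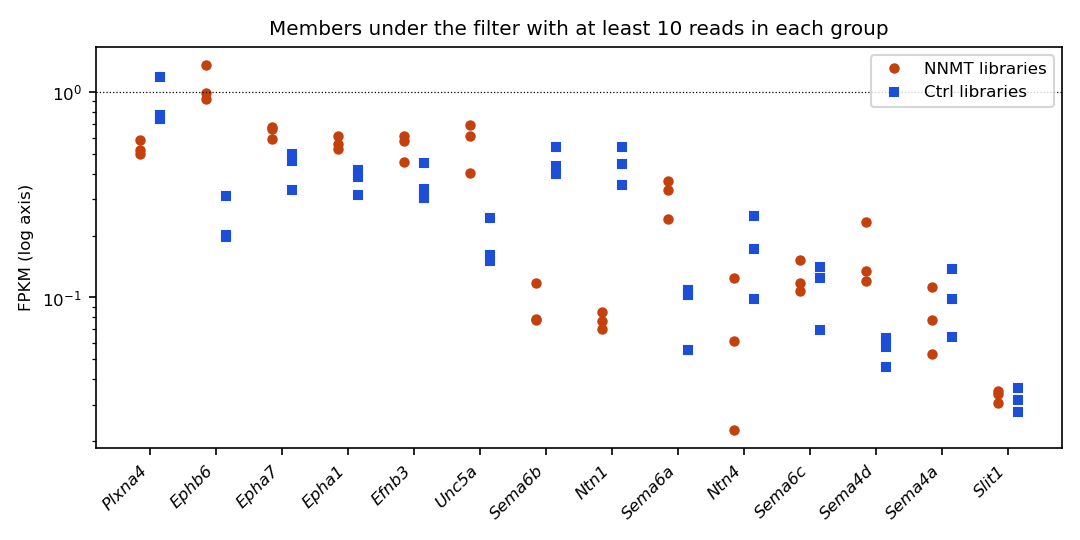
FPKM on a log axis of the 14 untested members with at least 10 reads in each group, for each NNMT library (circles) and each Ctrl library (squares), with a dotted line at 1 FPKM. Ephb6, Unc5a, Sema6a and Sema4d lie higher in NNMT libraries, and Ntn1 and Sema6b lie lower, with 0.0775 against 0.446 FPKM for Ntn1.

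Whole chromosomes differed between the groups, and 5 tested members lie on X, 4 and 16, which had the largest median shifts among chromosomes that hold members. Of 338 tested X-linked genes 90.2% fell. Their median was -0.70 on the log2 scale, with quartiles at -0.91 and -0.49. Efnb1 at -0.59 and Plxna3 at -0.68 lie between those quartiles. On chromosome 4 the median was -0.23, with 56.7% of genes lower. There Epha2 at -0.67 lies below the lower quartile of -0.45, and Ephb2 at -0.04 lies above the median. On chromosome 16 the median was 0.29 and Ephb3 at -0.03 lies under the lower quartile of 0.04. Away from X, Y, 4 and 16, 14 of 26 tested members rose and 5 fell, with a median of 0.18. Of the 9465 tested genes on the same chromosomes, 36.3% rose and 27.3% fell, with a median of 0.05. Efna5 at -0.79 lies on chromosome 17, where the median was -0.15. Whether the chromosome shifts have a part in the changes of these members was not tested.

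**Figure D5:**
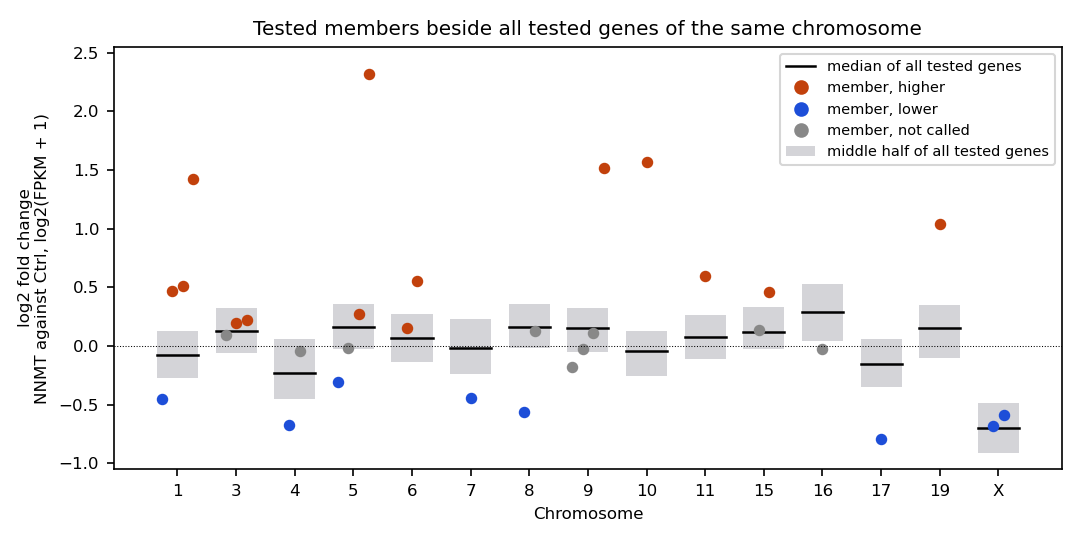
Log2 fold change of each tested member by chromosome (points, coloured by call), with the median (line) and middle range (grey box) of all tested genes of the same chromosome. Sema3c on 5, Unc5b on 10, Sema3b on 9 and Plxna2 on 1 lie far above their boxes, and both X-linked members lie inside the box of X.

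In a hand-made list of genes that act with these receptors, more were called lower than higher. Of its 79 co-receptors and effectors, none of them a member, 58 were tested. Of these, 17 rose and 24 fell, beside 35.0% and 30.6% of all genes tested. The median log2 fold change was -0.06 over them and 0.03 over all genes tested. The part of the chromosome shifts in these counts was not tested. Among the 8 with the smallest adjusted p were 3 exchange factors or GTPases. Tiam1, which activates Rac downstream of Eph receptors and ephrin-B, stood at 25.9 ± 2.16 FPKM in NNMT and 9.17 ± 0.400 FPKM in Ctrl cells (log2 fold change 1.40, adjusted p = 5.14e-08). Ngef, or ephexin, an exchange factor bound by EphA4, stood at 0.754 ± 0.260 FPKM in NNMT and 6.08 ± 0.241 FPKM in Ctrl cells (-2.02, adjusted p = 8.34e-08). Rnd1, a small GTPase that binds the inner part of plexins, stood at 13.9 ± 1.63 FPKM in NNMT and 4.88 ± 0.657 FPKM in Ctrl cells (1.34, adjusted p = 1.03e-06). Tiam1 lies on chromosome 16, where the median over tested genes was 0.29.

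Dpysl3, a cytoskeletal protein of the family that mediates semaphorin 3A signals, stood at 19.9 ± 2.87 FPKM in NNMT and 73.0 ± 5.17 FPKM in Ctrl cells (-1.83, adjusted p = 8.92e-08). Rgma, a repulsive ligand of neogenin, stood at 8.32 ± 0.845 FPKM in NNMT and 21.2 ± 1.13 FPKM in Ctrl cells (-1.26, adjusted p = 2.14e-07). Ablim1, an actin-binding protein, rose 2.82-fold, and Rasa1, a GTPase-activating protein that binds Eph receptors, and Met, the HGF receptor that associates with B plexins, fell 1.68-fold and 1.53-fold. Of the netrin co-receptors, Dcc was listed at 0 in all libraries. Neogenin (Neo1) had 10.3, 10.6 and 11.3 FPKM in NNMT cells, against 9.76, 9.66 and 9.55 in Ctrl cells (0.14, SE 0.0519, adjusted p = 0.0369). The FLRT genes, which encode other Unc5 ligands, were added to the named genes once their values were known. Flrt2 stood at 8.42 ± 1.32 FPKM in NNMT and 18.2 ± 1.92 FPKM in Ctrl cells (-1.03, adjusted p = 8.47e-06). Flrt1 and Flrt3 were under 1 FPKM in each library and were not tested. Flrt1 was higher in NNMT cells without overlap, at 0.435 ± 0.114 FPKM against 0.115 ± 0.017 in Ctrl cells. Flrt3 had 0.375 ± 0.17 FPKM in NNMT and 0.557 ± 0.0563 in Ctrl cells, and its groups overlapped.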

How the data were processed

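The authors deposited 1 table of gene values for 6 libraries, with no unit in its header. The submitters' processing notes name CASAVA, STAR 2.5 and mm10. The sources used here do not name the counter, the annotation release or the strandedness. The deposited values were read as FPKM because, gene by gene, they step by a constant amount. From these steps, whole reads were recovered for 20528 of 20528 genes above 0 (tolerance 0.01 read). For 4800 of them no annotated length fitted, and the first length in a search that gave whole reads was taken. Recovery of those genes is thus partly set by the method. On a 1 kb gene, 1 read equals 0.02498 to 0.03158 FPKM. Of the NNMT columns, 1 carries no replicate number and entered as an unnumbered library of its group. GENCODE M21 (GRCm38) supplied symbols and coordinates for 34490 of 35275 rows. Ntn3 was not analysed here.

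The fit used limma 3.58.1 (R 4.3.3, trend, robust, two-sided, Benjamini-Hochberg over all genes, threshold 0.05) on log2(FPKM + 1) of genes whose mean reached 1 FPKM. It was also run on simulated data in which 200 of 10882 genes changed, far fewer than the 65.6% called here. That run gave 18 false calls and recovered 46 of 50 genes changed 1.3-fold. Fold values are ratios of group means where each group had at least 10 reads. Members and lists were chosen with earlier results of these data known. Each library's value is given for called members with an absolute log2 change of 0.5 or more and for members averaging 10 FPKM or more. Of the co-receptors and effectors, the 8 with the smallest adjusted p, Dcc and Neo1 are named. Flrt1, Flrt2 and Flrt3 were added once their values were known. Alternatives were quantile and medians of ratios scaling, other filters, pseudocounts and thresholds, limma-voom on recovered reads, leaving out each library and a replicate block.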

Additional observations from a re-analysis of the deposited data

How the results depend on the processing

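The 14 members higher and 8 lower became 13 and 8 under quantile normalization, 13 and 9 under medians of ratios scaling, and 16 and 8 with limma-voom on recovered reads, which called 7194 genes in all. With no filter they were 18 and 12 of 63 members, where 21.4% and 17.1% of all genes were called. The median log2 fold change of members, 0.13, was 0.08 under medians of ratios scaling and 0.02 with no filter, where many low members lie near 0 on this scale, and ranged from 0.08 to 0.17 when 1 library was left out (0.09 without Ctrl replicate 3). Of the 22 members called, 21 kept their call in each of the 16 alternatives that tested them, and Plxna1 did not. Sema3a, not called, turned to 0.01 without the unnumbered NNMT library. Ephb3, not called, ranged from -0.10 to 0.10 with 1 library left out (-0.08 without NNMT replicate 3), turning to 0.10 without NNMT replicate 2 and to 0.02 without Ctrl replicate 1. Sema7a was called lower under medians of ratios scaling (adjusted p = 0.0406), and Plxnb2 and Efnb2 were called higher with limma-voom (0.0421 and 0.0433). The cause was not tested. Only numbers 2 and 3 occur in columns of both groups, and the deviations of these libraries from their group means correlated at 0.212 and 0.110. Other pairs of an NNMT and a Ctrl library correlated at -0.381 to 0.314. The highest, 0.314, was that of the unnumbered NNMT library with Ctrl replicate 1. If that library is NNMT replicate 1, this pair shares a number too. These values therefore do not decide whether libraries were paired by number. With the replicate number as a block in the 4 libraries numbered 2 and 3, 14 members were higher and 9 lower. Without the block, an alternative chosen after seeing the data, 13 were higher and 9 lower. The fit with the block leaves little spread to estimate within each gene, so its p-values rest mostly on spread pooled over genes. Of the 32 untested members with reads, 18 had under 10 reads in at least 1 group, which limits what can be said of them.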
